A study of Mus musculus with 4 samples.

Results

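Interleukin-17-producing T helper (Th17) genes were examined in mouse T cells that had been activated but, by their name, not directed to any helper fate. The 6 genes were Rora, Ccr6, Il17a, Il17f, Il23r and Il22, chosen by symbol with their transcript levels in these same libraries already known, out of 50600 genes in the count files. Their levels are therefore a description, and no test was made of them. The libraries were 4 biological replicates of 1 group, and no second condition was sequenced, so no treatment or genotype was compared. All 4 came from primary T cells of the strain C57BL/6NJ. Sex was not recorded, age was unknown, and 1 donor entry was shared by the 4 libraries. The linked culture protocol is for CD4 T cells, and the headers of the count files call the cells Th0, activated, sorted and 72 h. Th0 is the usual name for CD4 T cells stimulated through their receptor without polarizing cytokines. The labels do not tie each replicate to an animal or culture of its own, so each spread and p-value below measures only the difference between these libraries, which may be technical.

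Th17 cells are helper cells that defend mucosal surfaces against bacteria and fungi and drive inflammation in several autoimmune models. They arise when activated CD4 T cells receive IL-6 together with TGF-beta, which act through Stat3 and through nuclear receptors of the ROR family, of which Rora encodes RORalpha. The mature cells secrete IL-17A, IL-17F and IL-22, carry the chemokine receptor CCR6, and are maintained by IL-23 through the receptor chain encoded by Il23r.

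Levels are given as TPM, the share of transcripts scaled to a fixed total per library, computed from the deposited counts of read pairs and the exonic length of each gene. Total counts ran from 34978213 to 118937382 per library, with replicates 2 and 4 the deepest. The 6 genes fell into a group with abundant or moderate transcripts and a pair at or near 0. Ccr6, Il17f, Rora and Il17a had counts in every library and a TPM of at least 1 in all 4. Il23r and Il22 had 14 counts and 1 count in all, each in a single library. For scale, 49.9% of 21764 protein-coding genes passed that level in all 4. In these bulk libraries, fewer cells with a transcript and less of it per cell cannot be told apart.

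**Figure D1:**
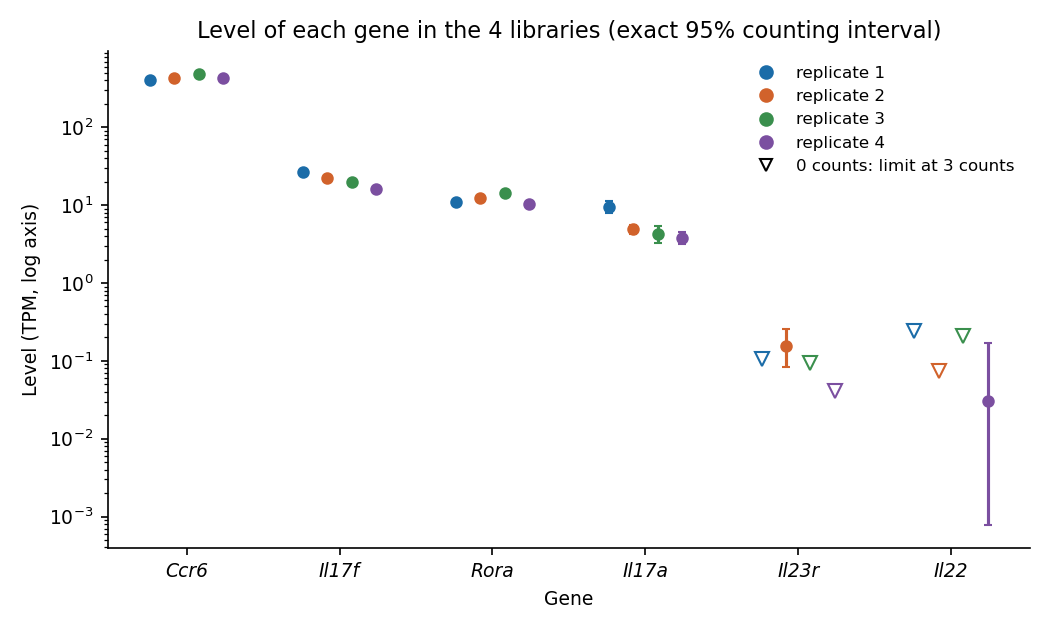
Level of each of the 6 genes in TPM on a log axis, 1 point per library, coloured by replicate, with the exact Poisson 95% interval of its count; open triangles mark libraries with 0 counts, at the level that 3 counts would give. Ccr6 lies at 402.5 to 485.8 TPM, and Il17f, Rora and Il17a lie between 3.82 and 26.9. All points and triangles of Il23r and Il22 lie at 0.239 or below, and the interval of Il23r in replicate 2 reaches 0.259.

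The sequences just upstream of 3 of these genes are shown because Il17a and Il17f are neighbours whose levels ordered the libraries alike, and because Ccr6 was the most abundant of the 6. Each is the 250 bases before the RefSeq start site (GRCm38.p6, the build called mm10), written in the direction of transcription. All 6 genes matched an entry in the RefSeq promoter table. Capitals mark matches on either strand to the ROR half-site, which reads AGGTCA. They also mark the AP-1 site, TGANTCA, in which N is any base, and the STAT site, which reads TTCNNNGAA. The last motif in capitals is the TATA box, TATAAA.
Il17a (chr1:20730655-20730904, plus strand): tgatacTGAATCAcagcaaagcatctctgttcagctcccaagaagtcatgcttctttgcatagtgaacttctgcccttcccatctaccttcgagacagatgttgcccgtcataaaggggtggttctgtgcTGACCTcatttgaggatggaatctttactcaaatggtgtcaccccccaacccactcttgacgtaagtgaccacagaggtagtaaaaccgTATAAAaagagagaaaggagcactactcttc
Il17f (chr1:20784271-20784520, minus strand): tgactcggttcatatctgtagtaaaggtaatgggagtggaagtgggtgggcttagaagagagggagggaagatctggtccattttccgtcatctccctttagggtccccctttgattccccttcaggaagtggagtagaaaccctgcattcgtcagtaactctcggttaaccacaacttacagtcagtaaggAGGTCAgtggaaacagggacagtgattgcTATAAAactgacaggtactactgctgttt
Ccr6 (chr17:8235793-8236042, plus strand): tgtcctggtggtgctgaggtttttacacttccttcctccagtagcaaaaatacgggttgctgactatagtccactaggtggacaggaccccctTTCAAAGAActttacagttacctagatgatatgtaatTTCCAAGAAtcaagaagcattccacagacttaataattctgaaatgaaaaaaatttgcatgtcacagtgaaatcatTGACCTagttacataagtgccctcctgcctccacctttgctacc

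The half-site AGGTCA, the core that ROR receptors bind as monomers, was found once in each of these 3 windows. It starts 120 bases before the start of Il17a on the opposite strand, 58 bases before that of Il17f on the same strand, and 44 bases before that of Ccr6 on the opposite strand. The window of Il23r held 2 matches, and those of Rora, Il22 and the second RefSeq start of Ccr6 held none. Of all 32851 promoter windows of this length, 14.0% held the half-site. Il23r, at or near 0, held the match and Rora, transcribed in every library, did not. The letters TATAAA start 31 and 29 bases before the starts of Il17a and Il17f and 170 bases before that of Il22, and 12.4% of windows held them. The NFAT core GGAAA, not capitalised, was also searched and was in 55.6% of windows, with 2 matches for Il17f and none for Il17a. The AP-1 site was found only in the Il17a window among the 6 genes (6.75% of all windows) and the STAT site only in that of Ccr6, where it occurred 2 times (7.02% of all windows). A match is a description of these letters and shows no binding. The count files give Il17f a longer gene model than RefSeq, in which this window lies inside the gene, with 26 of its bases in an exon.

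Of the regulators, Rora (ENSMUSG00000032238, chromosome 9, plus strand, mm10) was the ROR gene among the 6. It stood at 10.9, 12.3, 14.2 and 10.46 TPM in replicates 1 to 4, or 12.0 ± 1.69 (SD, n = 4). Replicate 3 was highest, and the highest library was 1.36 times the lowest. Rorb, another ROR gene, which is known from retina and brain, had 0 counts in all libraries. The deposited length of Rora, 13071 bases, joins the exons of all its transcripts, whereas its longest protein-coding transcript in GENCODE M21 has 10878 bases. With that length its mean level was 14.4 TPM. A non-coding antisense gene, Gm15511, shares 82 exonic bases with Rora on the other strand, and the counts were made by strand.

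Ccr6 (chromosome 17, plus strand) encodes the receptor that leads Th17 cells, some regulatory T cells and B cells towards its ligand Ccl20. Its level was 402.5, 430.9, 485.8 and 433.8 TPM in replicates 1 to 4, or 438.3 ± 34.7 (SD, n = 4). Only 299 of the 21764 protein-coding genes had a higher mean. The 4 libraries lay close together, with the highest 1.21 times the lowest. The genes on either side of Ccr6, Fgfr1op and Mpc1, were less abundant, at 51.8 to 57.2 and 65.3 to 73.1 TPM. Ccl20 itself was low, from 0.499 to 0.706 TPM.

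Il17f (chromosome 1, minus strand) and Il17a (chromosome 1, plus strand) encode related cytokines that form homodimers and a mixed dimer. Il17f stood at 26.9, 22.2, 19.6 and 16.3 TPM in replicates 1 to 4, or 21.2 ± 4.49 (SD, n = 4). Il17a stood at 9.61, 4.92, 4.28 and 3.82 TPM, or 5.66 ± 2.67 (SD, n = 4), from 127, 210, 65 and 132 counts. Replicate 1 was highest and replicate 4 lowest for both genes. For Il17a the replicate 1 interval, 8.01 to 11.4 TPM, did not overlap those of the other libraries, which together ran from 3.19 to 5.64. These intervals hold counting error alone, because no molecular identifiers were counted and reads may be copies of 1 molecule.

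Il17f exceeded Il17a in every library. The ratio of their TPM was 2.8 in replicate 1, against 4.503, 4.58 and 4.26 in replicates 2 to 4, so replicate 1 held both more of each transcript and relatively more Il17a. On the log2(TPM + 0.1) scale the difference of Il17f minus Il17a was 1.96 ± 0.33 (SD, n = 4). The size of the excess rests on gene length, since Il17f has 2022 exonic bases in the deposited model but 1178 in its longest protein-coding transcript. With the latter length its mean level was 36.5 TPM.

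Il17a and Il17f are transcribed towards each other across a gap of 42650 bases, and each start faces a different neighbour. Beyond the start of Il17f, 12351 bases away, lies Mcm3, which encodes a subunit of the replicative helicase. Mcm3 was at 413.5, 462.2, 433.8 and 456.1 TPM, lowest in the library where Il17f was highest. On the other side of Il17a, the long non-coding gene Gm28653 had 0 counts in all libraries, and Pkhd1, a gene of kidney tubules, was detected in replicate 4 alone, at 0.00473 TPM. The nearest genes on the outer sides of the pair thus differed widely in level.

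**Figure D2:**
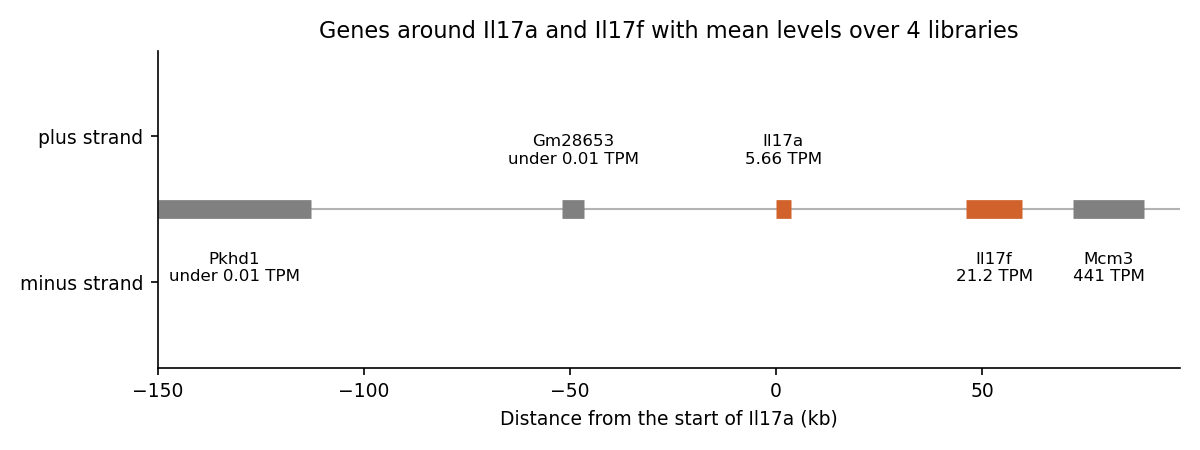
Gene models around Il17a and Il17f drawn to scale by distance in kb from the start of Il17a, with labels above the line for the plus strand and below it for the minus strand, and with mean TPM over 4 libraries; Pkhd1 runs on past the left edge. Il17a and Il17f, at 5.66 and 21.2 TPM, lie between Gm28653, listed at 0, and Mcm3 at 441.4 TPM.

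Il23r (chromosome 6, minus strand) encodes the chain that binds IL-23 together with Il12rb1. It had 14 counts in replicate 2, which is 0.154 TPM (exact Poisson 95% interval 0.0844 to 0.259), and 0 counts in replicates 1, 3 and 4. A count of 0 allows up to 3 counts, which is 0.107, 0.0930 and 0.0408 TPM in those libraries. The interval of replicate 2 lay above that limit in replicate 4, the other deep library, while those of the shallower replicates 1 and 3 do not separate from it. Il12rb2, the IL-12 receptor chain whose gene lies beside Il23r on the same strand, stood at 2.73 to 3.84 TPM.

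Il22 (chromosome 10, plus strand) encodes a cytokine that acts on epithelial cells. It had 1 count, in replicate 4, which is 0.0305 TPM (exact Poisson 95% interval 7.72e-04 to 0.170), and 0 counts in the other libraries, which allows 0.239, 0.0742 and 0.209 TPM in replicates 1 to 3. Iltifb, an annotated gene closely related to Il22, had 0 counts in all 4 libraries. Pairs that map to more than one place were not counted, so the level of Il22 could be too low if the 2 genes share sequence. At this depth Il23r and Il22 could not be ordered against each other.

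The regulator was then set against the receptors and cytokines inside each library. Rora was lower than Ccr6 in 4 of 4 libraries, by -5.19 ± 0.12 (SD, n = 4) on the log2(TPM + 0.1) scale. Rora was also lower than Il17f in 4 of 4 libraries, at a difference of -0.81 ± 0.36, and higher than Il17a in 4 of 4, at 1.16 ± 0.67. In replicate 1 the difference from Il17a was only 0.18, and there the counting intervals of Rora (10.4 to 11.5 TPM) and Il17a (8.01 to 11.4 TPM) overlapped. The order of Rora and Il17f depended on the correction for length. With CPM, counts scaled to a fixed total with no correction for length, Rora stood above Il17f by 1.87 log2, because its exons are several times longer. Against Il23r and Il22 the differences were 6.57 ± 0.67 and 6.81 ± 0.35, values set largely by the pseudocount of 0.1. The order of mean levels was thus Ccr6, Il17f, Rora, Il17a, then the pair at or near 0. The library ranges of neighbours in the order down to Il17a did not overlap.

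Other factors that promote the Th17 programme were taken from a list of 11 genes. Of these, 9 had a TPM of at least 1 throughout, and the median of their mean levels was 56.6 TPM against 1.43 over all protein-coding genes. Junb, Irf4 and Batf, which bind together at many activation and Th17 genes, led the list. Junb stood at 1099 to 1348 TPM, Irf4 at 486.2 to 545.4 and Batf at 254.9 to 288.6. Hif1a stood at 141.5 to 181.9 and Stat3, the factor downstream of IL-6 and IL-23, at 130.1 to 155.9. Rora was less abundant than all of these and near Ahr, the ligand-gated factor needed for Il22 transcription, at 8.89 to 10.1. The 2 genes below the limit were Maf, at 0.255 to 0.796 TPM, and Sox5, at 0.103 to 0.280. These factors serve other programmes of activated T cells too, and the list was drawn up with earlier results of these data known.

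All 11 listed factors that restrain the programme also had a TPM of at least 1 throughout, with a median of 38.8 TPM. The list was led by Stat5b at 101.5 to 119.8, Gfi1 at 106.0 to 114.8 and Stat5a at 107.4 ± 5.69 (SD, n = 4) TPM. Stat5 proteins carry the IL-2 signal and compete with Stat3 at the Il17a locus, and Gfi1 is a repressor. Foxp3 had the lowest mean, at 1.502 to 2.51, and Socs3, the feedback inhibitor of IL-6 and IL-23 signalling, stood at 6.28, 7.77, 6.35 and 12.1 TPM.

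**Figure D3:**
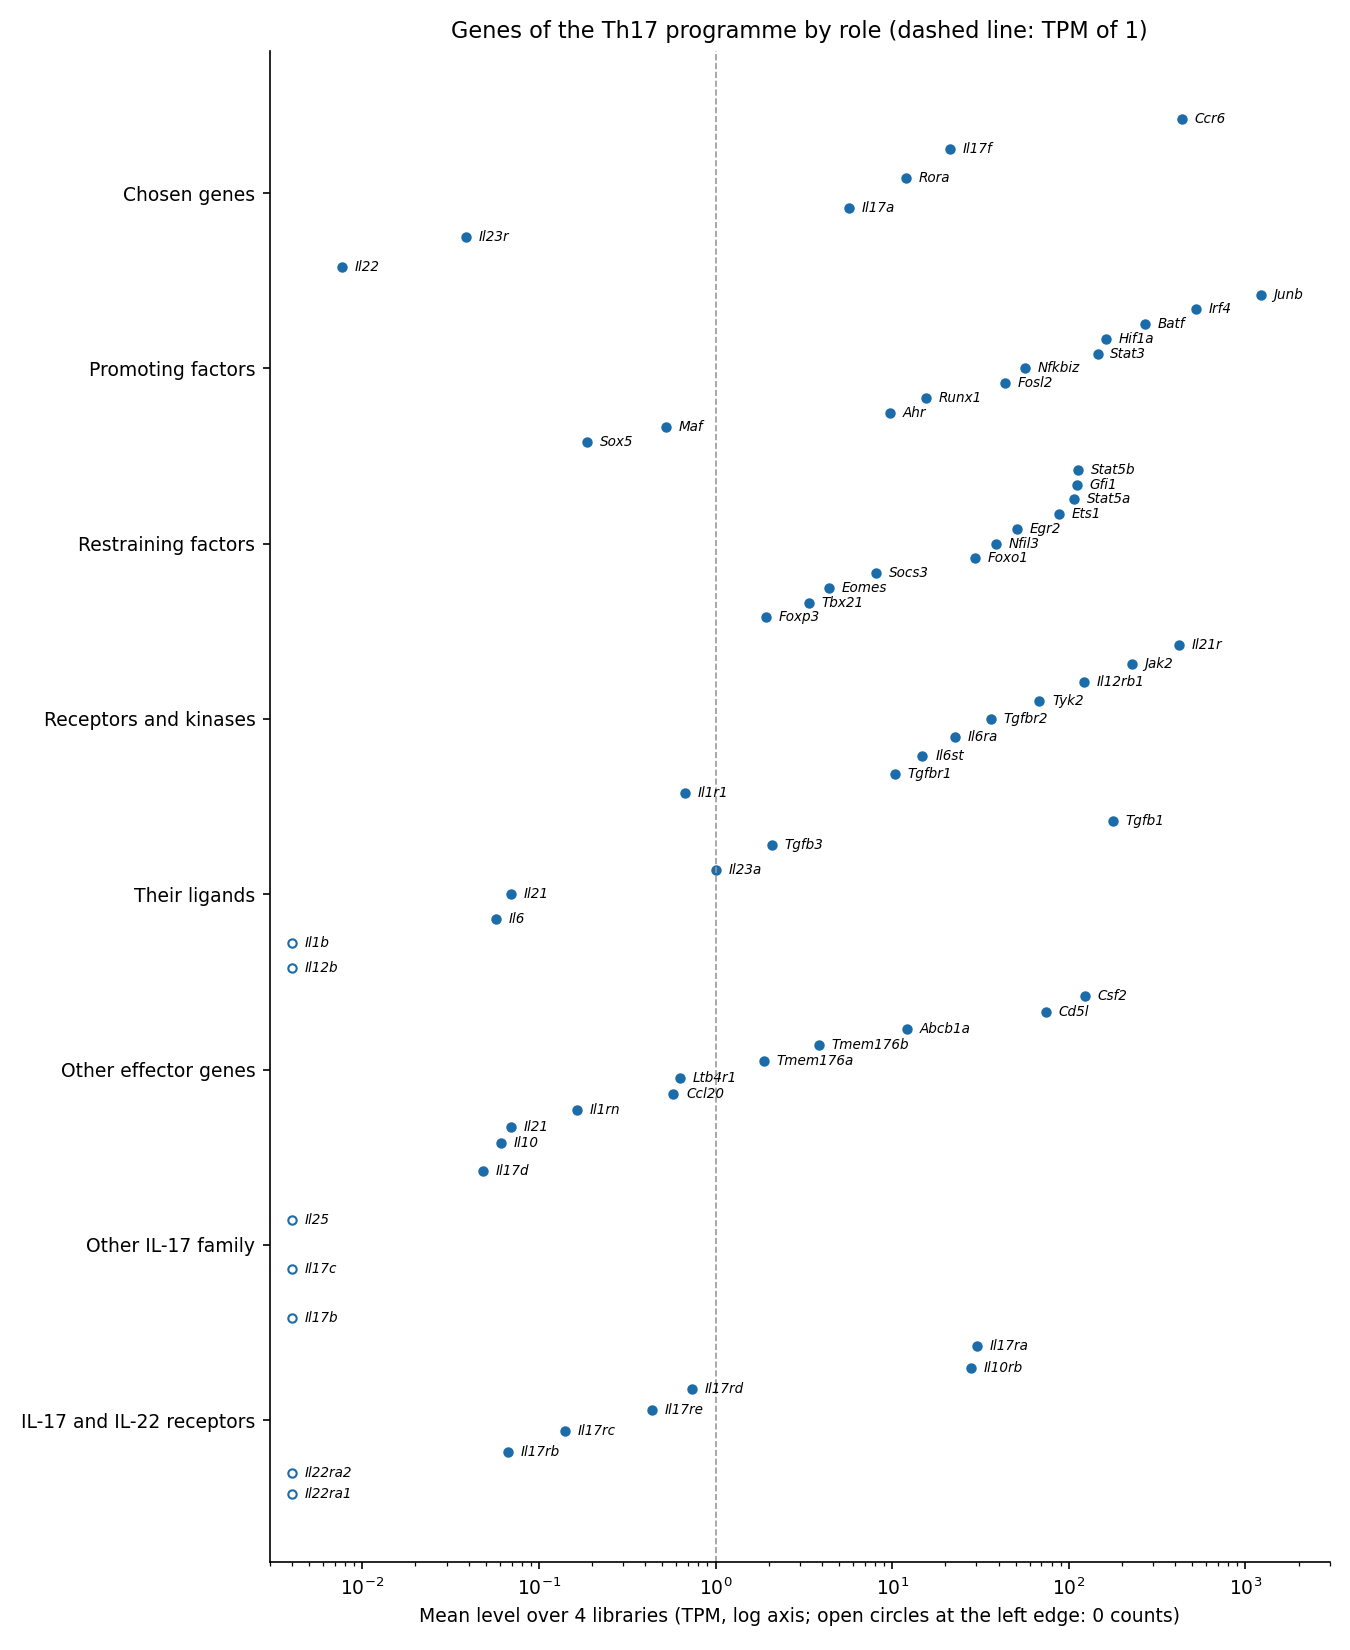
Mean level over 4 libraries in TPM on a log axis for each gene of the chosen set and of the lists grouped by role; open circles at the left edge had 0 counts in all libraries, and the dashed line marks a TPM of 1. Promoting and restraining factors lie mostly to the right of the line, while the ligands and the remaining IL-17 family lie mostly to the left.

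Of 9 receptors and kinases that carry the inducing signals, 8 passed the same level. Il21r stood at 414.3 to 429.6, the kinase Jak2 at 217.5 to 236.9 and Il12rb1 at 108.2 to 131.0 TPM. For the IL-23 receptor complex this left Il12rb1, Jak2 and Tyk2 (62.1 to 74.8 TPM) present in every library and Il23r at or near 0. The IL-6 receptor chains Il6ra and Il6st stood at 21.1 to 25.1 and 14.2 to 16.4. Il1r1, through which IL-1 acts on Th17 cells, stayed under the limit, at 0.423 to 0.824.

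The ligands of those receptors were mostly low. Of 7 ligands, 2 passed that level. Tgfb1 stood at 164.6 to 186.5 TPM and Tgfb3 at 1.78 to 2.49, while Il23a, the chain particular to IL-23, lay at 0.749 to 1.19. Il6 was detected in 2 libraries, at 0.0339 and 0.195 TPM, and Il1b and Il12b had 0 counts in all 4.

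Among 10 other effector genes of Th17 cells, 5 passed it. Csf2, which encodes GM-CSF, stood at 116.3 to 135.3 TPM, and Cd5l, a regulator of lipid metabolism in Th17 cells, at 85.5, 78.1, 69.8 and 62.8. The transporter gene Abcb1a followed at 10.2 to 13.4. Il21 lay at 0.0261 to 0.118. Within the IL-17 family, Il17b, Il17c and Il25 had 0 counts in all libraries and Il17d reached at most 0.126 TPM, all below Il17a and Il17f.

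Of 8 receptor genes for IL-17 and IL-22, 2 passed it in all libraries. These were Il17ra, the shared IL-17 receptor chain, at 25.7 to 32.8 TPM, and Il10rb, the shared chain of the IL-10 and IL-22 receptors, at 25.9 to 30.7. Their partner chains were lower, Il17rc at 0.0507 to 0.289 TPM and Il22ra1 at 0 counts in all 4 libraries. Il17rd, which had the next highest mean, lay at 0.568 to 0.942.

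The labelled cell type was checked by markers. All 6 CD4 T cell markers had a TPM of at least 1 throughout, and their summed level was 5597 to 5975 TPM. Of the CD8 T cell markers, Cd8b1 passed that level and Cd8a, at 0.0636 to 0.512 TPM, did not, with a sum of 17.5 to 29.5. Gamma-delta T cells also make IL-17, and 0 of their 6 markers reached that limit in every library. Their summed level was 1.75, 2.52, 1.57 and 2.07 TPM in replicates 1 to 4, and Cd163l1, a marker of the IL-17-producing subset, had 0 counts. The gamma chain gene Tcrg-C1 had 22 counts in replicate 2 and 0 elsewhere, and Tcrg-C2 had 15 in replicate 2 and 2 in replicate 3. Replicate 2, the deepest library, was also the only one with counts of Il23r. The other gamma-delta markers were not highest there. Blk had 0 counts in replicate 2, Trdc was highest in replicate 1, at 0.756 TPM, and Sox13 in replicate 4, at 1.37 TPM. For group 3 innate lymphoid cells, 1 of 3 markers reached the limit, Cxcr5, which follicular helper T cells also express. The sum was 3.485, 2.44, 3.08 and 2.90 TPM in replicates 1 to 4, highest in the library where Il17a and Il17f were highest. Cxcr5 made up most of it, with 3.35 TPM in replicate 1. The other markers did not share that order. Kit was lowest in replicate 1, at 0.0199 TPM, and Ncr1 was highest in replicate 4, at 0.220 TPM. Natural killer and NKT cells had 1 of 4, Eomes, also in the list of restraining factors, with a sum of 3.92 to 6.15 and with Zbtb16 at 0 in 3 libraries and at 0.0513 TPM in replicate 4. B cells express Ccr6, and 2 of their 6 markers reached the limit, with a summed level of 7.92, 4.38, 3.70 and 5.17 TPM in replicates 1 to 4 that was highest in the library where Il17a was highest and Ccr6 lowest. Of 5 dendritic and myeloid markers none reached it, and they summed to 1.89, 0.685, 0.886 and 1.34, with Itgax and Lyz2 at 0 throughout. The part of such cells in the levels was not tested.

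The spread of each gene between libraries had not been used to choose the set, and it was tested with edgeR's goodness of fit across all genes that passed a filter on low counts. Of the 6 genes, 4 passed that filter and Il23r and Il22 did not. None of the 4 was called as varying beyond the trend of genes at like abundance, where 66 of 14269 genes, or 0.463%, were called. The Benjamini-Hochberg adjusted p from edgeR was 0.374 for Il17f, 0.711 for Il17a, 0.760 for Rora and 1.0 for Ccr6. Before adjustment, Il17f, Il17a and Rora had a p under 0.05, as did 812 of the 14269 genes tested. These values depended on which libraries were kept. By the same edgeR test, the unadjusted p without replicate 1 was 0.806 for Il17a and 0.150 for Il17f. For Il17f it was 0.0524 without replicate 4, and for Rora it was 0.0504, 0.277 and 0.146 without replicates 2, 3 and 4 in turn. The remaining values of that edgeR test stayed under 0.05. They were 0.0156, 0.0184 and 0.0276 for Il17a without replicates 2, 3 and 4. For Il17f they were 0.0061 and 0.0054 without replicates 2 and 3, and for Rora 0.0118 without replicate 1. Ccr6 was above 0.05 throughout. No gene of the pathway lists was called either by the main edgeR test. The unadjusted p also depended on the method. For Rora, edgeR gave 0.0941 with no filter on low counts and 0.351 with a common dispersion, and limma's variance test gave 0.0456. For Il17a, edgeR gave 0.0460 and 4.16e-06 in those settings, and limma's variance test gave 0.0516. Il17f stayed under 0.05 in these settings, with a highest p of 0.0209 from limma's variance test.

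The size of the spread was then described without a test. Around its own mean, Il17a lay at 0.92, -0.12, -0.33 and -0.47 log2 CPM in replicates 1 to 4, an SD of 0.63 that exceeded those of 95.1% of the genes tested. Il17f lay at 0.43, 0.06, -0.13 and -0.37, an SD of 0.34. Rora had an SD of 0.17 and Ccr6 one of 0.08, against a median of 0.12 over all genes tested. The cytokines had the larger SD and also the fewer counts. Rora and Ccr6 had their highest library in replicate 3, while the cytokines had theirs in replicate 1.

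**Figure D4:**
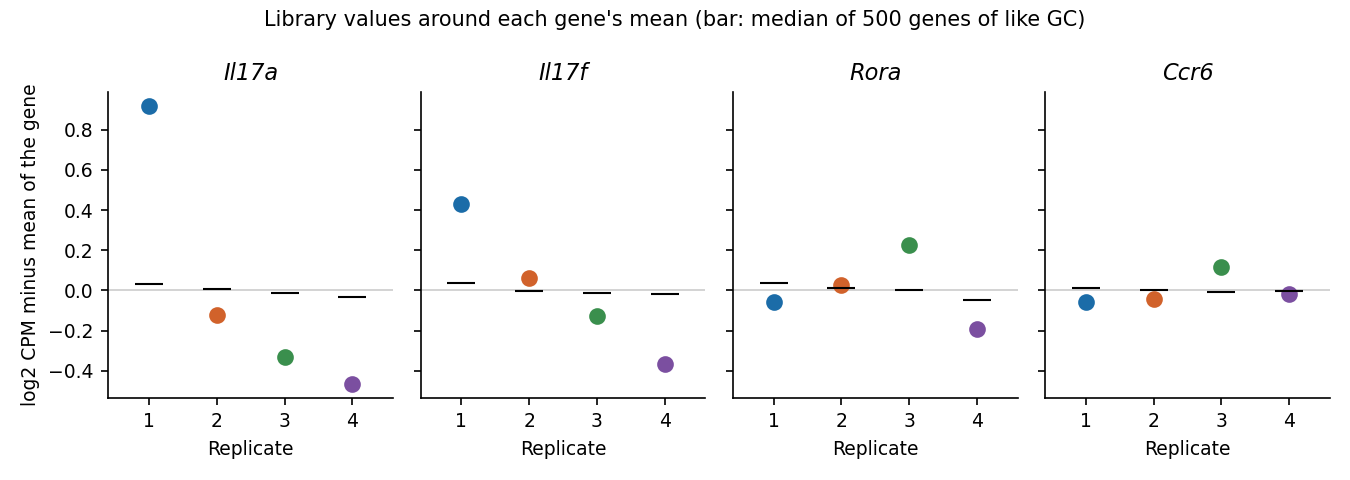
Log2 CPM of 4 genes in each library minus the gene's own mean, 1 point per replicate; short black bars give the median of 500 genes of like GC content in that library. Il17a and Il17f are highest in replicate 1 (0.92 and 0.43), and Rora and Ccr6 are highest in replicate 3 (0.22 and 0.12).

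The same order of the 4 libraries, replicate 1 highest and then 2, 3 and 4, was found in the normalised log2 CPM of 726 of the 14269 genes tested, or 5.09%. Beside Il17a and Il17f it was found in Il2, Cd5l, Ahr, Il21r and the gamma-delta gene Trdc among 69 tested genes of the lists. Trdc had 33, 106, 37 and 74 counts in replicates 1 to 4 and spanned only 0.648 to 0.756 TPM. Sox13, another gamma-delta marker, was highest in replicate 4, at 1.37 TPM. In TPM, Ahr was highest in replicate 3 and Il21r in replicate 2, so their order held on the log2 CPM scale alone. Il2, the growth factor of activated T cells, had 724.2, 629.2, 598.1 and 531.7 TPM in that order. GC content moved with the libraries too, rising where Il17a fell. The Spearman correlation across 12151 genes of GC with centred log2 CPM was -0.253, 0.01, 0.066 and 0.264 in replicates 1 to 4. Genes are not independent, so these values only describe the libraries. Il17a and Il17f have 42.4% and 44.6% GC in their longest protein-coding transcript, and 12.0% of genes had less GC than Il17a. The part of GC content in these levels was not tested. The 500 genes nearest in GC to Il17a had medians of 0.03, 0.01, -0.01 and -0.03, and after these were taken off, Il17a lay at 0.89, -0.13, -0.32 and -0.43. For Il17f the values became 0.39, 0.07, -0.11 and -0.35.

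The genes whose library pattern lay nearest to each member were found by the root-mean-square difference of centred log2 CPM over the 4 libraries. For Il17a they were Trav21-dv12, a receptor alpha segment, at 0.0747 log2, Lrguk at 0.0816 and Ino80dos at 0.0829. For Il17f they were Fgr, a Src-family kinase, at 0.0271, Hacd1 at 0.0276 and 3110001I22Rik at 0.0351. For Rora they were Cmya5 at 0.0172, Zhx3 at 0.0198 and Cfap300 at 0.0225. Il17f was 153rd in nearness to Il17a, at 0.286 log2, and Il17a was 5076th in nearness to Il17f, since far more genes have the smaller spread of Il17f. With 4 libraries many genes match any pattern closely, so this nearness describes these libraries alone.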

How the data were processed

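RNA was sequenced from 4 libraries of mouse T cells. The authors deposited raw counts of read pairs per gene, made with featureCounts 1.4.6-p4 on GENCODE M13 exons of mm10, by strand, and without multiply mapped or multiply overlapping reads, per the file headers. The headers name the alignments as STAR output, with no version stated. Of 50600 genes, 50376 were matched by identifier to GENCODE M21 symbols. TPM was computed here from the counts and the exonic length, and log2 values used a pseudocount of 0.1. Spread between libraries was tested with edgeR 4.0.16 in R 4.3.3 (filterByExpr, TMM, intercept-only design, goodness of fit under the trended dispersion, Benjamini-Hochberg adjustment at 0.05, prior count of 2 for log2 CPM); the procedure was tested on simulated data. Counts have exact Poisson 95% intervals (scipy 1.17.1). The genes and lists were chosen with earlier results of these data known. Named genes were the 6 genes, the 3 most abundant of each list, flanking genes, related copies and the 3 nearest in library pattern; further list genes, Rorb and the GC comparison lie outside that rule and were chosen after values were seen.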

Additional observations from a re-analysis of the deposited data

Results flagged for a closer look

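A gene or difference is given here if its highest or lowest library was separated from the nearest other by more of the whole range than the 95% limit of Dixon for 4 samples. This held for 4 of 36 examined, and chance gives it in about 1 of 20 groups. It is a description here, since the 6 genes were chosen with their levels known. The log2 difference of Il17f minus Il17a was 1.48 in replicate 1, against 2.06 to 2.17 in the others. Il23r was 0.154 TPM in replicate 2 and Il22 was 0.0305 TPM in replicate 4, each against 0 in the other libraries, which any gene seen in a single library meets. Irf4, one of the factors that promote the programme, was 486.2 TPM in replicate 1, against 538.0 to 545.4 in the others. In normalised log2 CPM its SD was 0.0389, below the median of 0.119 over all genes tested, and its adjusted p from edgeR was 1.0.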

How the results depend on the processing

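Under the alternatives, 102 recomputed values were little changed. Levels and differences moved by less than 1 SD, counts of genes stayed within 1.5 times, and adjusted p-values stayed on their side of the threshold. A further 13 moved by more with no change of sign, 1 reversed and 1 passed the threshold. With 1 library left out, a mean level or difference cannot move by as much as 1 SD. Such values were therefore bound to be among the 102 and are no sign of robustness. With CPM in place of TPM, Rora minus Il17f reversed to 1.87 log2, Rora minus Ccr6 was -2.51, Rora minus Il17a 4.58, Rora minus Il23r 8.64, Rora minus Il22 8.89 and Il17f minus Il17a 2.71, since CPM leaves out gene length. With a pseudocount of 1 and of 0.01, Rora minus Il23r was 3.64 and 9.21 and Rora minus Il22 was 3.68 and 9.71. With the longest protein-coding transcript as length, chosen after seeing the data, Rora minus Il17f was -1.32. The number of variable genes was 955 with a common dispersion, where edgeR called Il17a (adjusted p = 2.91e-04), 27 with limma's variance test, and 41 to 68 with 1 library left out, the 41 without replicate 1. The cause of those changes was not tested. The adjusted p of Il17a ranged from 2.91e-04 to 1.0 over the alternatives, and those of Il17f, Rora and Ccr6 stayed at 0.110 or above. Depth limits Il23r and Il22 most, which rest on 14 counts and 1 count.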

Other observations

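Some signature cytokines of other helper subsets had transcripts beside Il17a and Il17f. Of 7 such genes, 3 had a TPM of at least 1 throughout, against 49.9% of all protein-coding genes. These were Il13, Il9 and Il2, which is the growth factor of activated T cells in general. Il13, a cytokine of Th2 cells, stood at 19.97 to 29.7 TPM with a mean of 23.4 ± 4.58 (SD, n = 4), a range that overlapped that of Il17f (16.3 to 26.9). Il9 lay at 1.02 to 2.64 TPM, below Il17a in every library. Il4 and Il5, the other Th2 cytokines of the list, lay at 0.414 to 1.66 and 0.115 to 0.727. Ifng lay at 0 to 1.07 TPM and Il10 at 0 to 0.177. Il4 was highest in replicate 1, as Il17a was, while Il13 was highest in replicate 2.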
